A study of Homo sapiens with 16 samples.

Results

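The subunits of nuclear factor kappa B (NF-kB) and the feedback inhibitors of the pathway were followed in Caco-2, an epithelial cell line from a human colon carcinoma, after 6 h with pepsin- and trypsin-digested gliadin (PT-G), with the blank digestion mixture (PT) or with the gliadin peptide p31-43. The members were the 10 genes RELA, RELB, REL, NFKB1, NFKB2, NFKBIA, NFKBIB, NFKBIE, TNFAIP3 and BIRC3, chosen by name among the 30982 gene names on the array, and they were measured by 13 probes. PT was digested as PT-G was but held no gliadin, p31-43 was a synthetic peptide given at 150 µg/ml, and the control cells (MED-CTL) stayed in medium. Per the paper, heat inactivated the pepsin and trypsin after the digestion, which was checked with a trypsin substrate. All cells were undifferentiated, were kept in medium with a low serum content during the stimulation and were detached with trypsin-EDTA at harvest, the controls too. Each condition had 4 arrays, from experiments that the labels call independent and that used cells 1 or 2 passages apart, so every value comes from 1 cell line. PT-G was tested for endotoxin by the submitters, who found none, and no such test of PT is described.

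NF-kB is a family of transcription factors that act as dimers. In resting cells the dimers are held in the cytoplasm by inhibitory proteins of the IkB family, and a kinase complex that marks these inhibitors for degradation lets the dimers enter the nucleus. Several of the genes then switched on encode inhibitors of the same pathway, which limits the response in time, and in the gut epithelium the pathway is known for its part in the response to microbes and to inflammatory cytokines.

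The arrays differed in their overall brightness before normalization. The median spot intensity lay between 153 and 410 on the 16 arrays, the median background between 48 and 65, and between 27660 and 33947 spots were well above background. After quantile normalization, the lowest correlation of log2 values between any pair of arrays was 0.97. The arrays belonged to 4 runs, read from a code in the file names that is shared by 1 array of each condition, and the runs are treated as batches below. The labels do not say whether the code marks the independent experiments, and all values by run rest on it. By another code in the same file names, the arrays lay on 5 slides. Each run had a slide of its own, except that PT replicate 3 (run 3) and p31-43 replicate 4 (run 4) shared slide 5. Differences of these arrays from others of their run also cross slides, which was not tested apart. All 7 epithelial marker genes (EPCAM, KRT8, KRT18, KRT19, CDH1, VIL1 and CDX2) were well above background on all 16 arrays. Of 7 markers of other cells, PTPRC was well above background on 0 of 16 arrays, while CD3E, CD14, PECAM1, VWF, COL1A1 and COL3A1 were above it on 16, with log2 intensities between 6.77 and 10.18. Their part in the results below was not tested. As in any bulk measurement, a change in RNA per cell and a change in the number of cells of a kind cannot be told apart.

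The promoters of the members are shown because feedback in this pathway runs through them. RefSeq promoters (build GRCh38.p14, from 250 bases before to 50 bases after the start of transcription) were at hand for 8 of the 10 members, with 13 start sites. RELB and NFKBIE had no entry. The kB consensus GGGRNWYYCC (R is A or G, N any base, W A or T, Y C or T) was searched on both strands. It was found in 8 of these 13 promoters, against 5.91% of all 35116 promoters. The matches lay in 7 of the 8 genes, for which no share by gene over all genes was computed. The 5 promoters without a match were both of RELA, the first of NFKB2, the first of NFKBIB and the second of NFKB1. A match is a description of the letters and says nothing about binding, which was not measured here. Stretches around the matches are given 5′ to 3′ on the strand of the gene, with the matched bases in capitals and 12 bases on either side, and where matches overlap the capitals run through both. NFKB2 is shown by its second promoter, and the stretch of 188 bases around the 2 matches in the third is not printed:
REL, chr2:60881515-60881549, plus strand: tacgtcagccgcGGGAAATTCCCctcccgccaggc
NFKB1, chr4:102501298-102501331, plus strand: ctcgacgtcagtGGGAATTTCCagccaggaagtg
NFKB2, chr10:102394459-102394521, plus strand: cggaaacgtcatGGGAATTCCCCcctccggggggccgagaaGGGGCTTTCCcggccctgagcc
NFKBIA, chr14:35404809-35404842, minus strand: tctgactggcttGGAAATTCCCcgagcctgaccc
NFKBIB, chr19:38899929-38899963, plus strand: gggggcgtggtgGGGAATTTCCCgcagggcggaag
TNFAIP3, chr6:137867180-137867225, plus strand: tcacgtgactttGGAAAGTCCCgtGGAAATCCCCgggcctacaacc
BIRC3, chr11:102317273-102317370, plus strand: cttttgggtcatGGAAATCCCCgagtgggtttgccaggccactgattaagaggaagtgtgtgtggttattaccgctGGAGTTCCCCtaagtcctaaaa

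All matches in the members lay before the start of transcription. In REL, NFKB1, NFKBIA, NFKBIB and TNFAIP3 they began between 27 and 81 bases before it, in the second promoter of NFKB2 between 78 and 107 bases, in the third at 176 and 21 bases, and in BIRC3 at 199 and 135 bases. TNFAIP3 and BIRC3 each had 2 separate matches, and TNFAIP3's began 67 and 55 bases before the start.

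**Figure D1:**
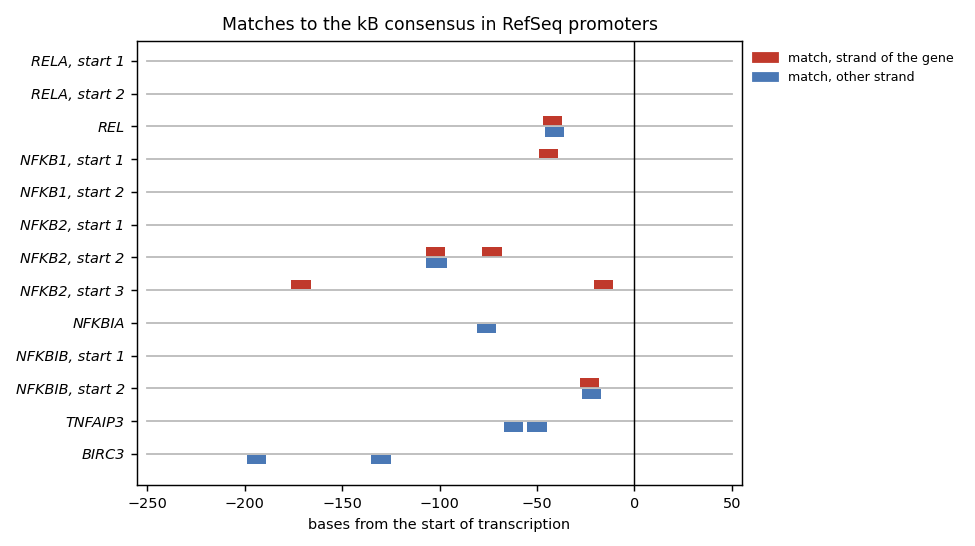
Matches to the kB consensus in the 13 RefSeq promoters of 8 members, plotted by distance in bases from the start of transcription (0); red bars are matches on the strand of the gene and blue bars on the other strand. All bars lie left of the start, and 5 of the 13 promoters have none.

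A member is described by its brightest probe where it has more than 1, and values are log2 intensities after quantile normalization. A gene was called changed at a nominal p under 0.01 in limma, the threshold of the study, and an adjusted p (Benjamini-Hochberg over all 40982 probes tested) is given beside it. NFKBIE was the 1 member of 10 that was called against MED-CTL under PT-G, where 3.44% of all probes were called, and again the 1 of 10 under PT, where 3.64% were. Under p31-43 the count was 0 of 10, with 0.388% of all probes called. No member had an unadjusted p under 0.05 in that comparison (limma, without the run in the model). The median log2 fold change over the 10 members was 0.37 for PT-G, 0.38 for PT and 0.02 for p31-43, against medians over all probes of -0.01, -0.01 and 0.00. With PT-G 9 members were above MED-CTL, with PT also 9 and with p31-43 only 5, where 47.9%, 47% and 49.6% of all probes were above it. The members' brightest probes lay between percentiles 54.2 (REL) and 95.3 (RELB) of level, while all probes include many dim ones. Medians and shares over bright probes alone were not computed. With arrays scaled to a common median instead, RELA under PT-G, NFKB1 under PT and TNFAIP3 under p31-43 changed sign, at 0.01, 0.00 and 0.03. These comparisons share the MED-CTL arrays.

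**Figure D2:**
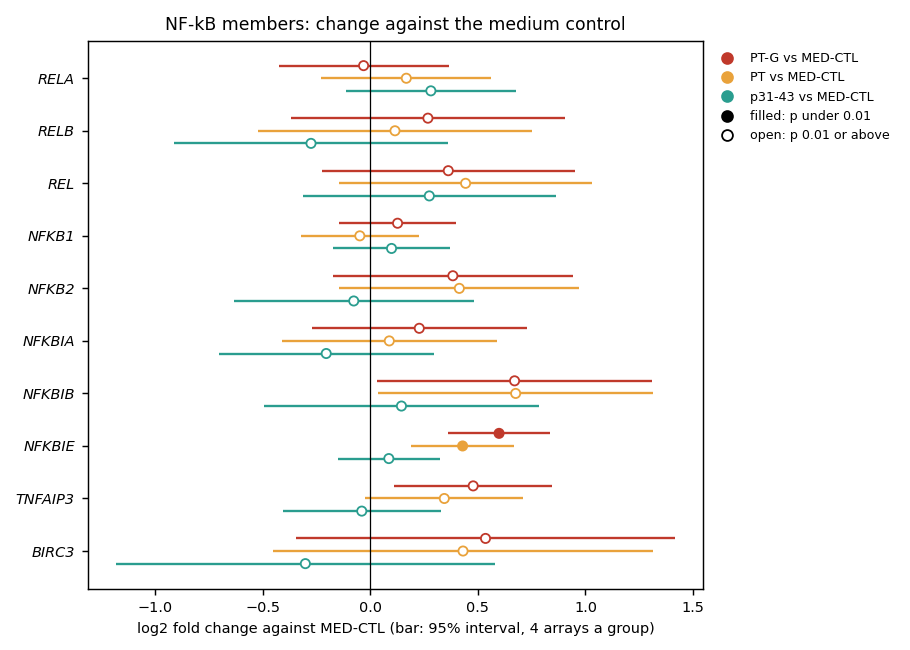
Log2 fold change of each member against MED-CTL under PT-G (red), PT (orange) and p31-43 (green), from the brightest probe and 4 arrays a group; bars are 95% intervals from limma and filled points have a nominal p under 0.01. NFKBIE is the only member with filled points, at 0.60 under PT-G and 0.43 under PT, and the widest intervals are those of BIRC3.

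Most of the spread of the members lay between runs and not between conditions. Of the sum of squares over the 16 arrays, the run took between 4.95% (NFKBIE) and 65.6% (RELB), with a median of 55.3% over the 10 members, and the condition took between 16.8% (NFKB1) and 76.5% (NFKBIE), with a median of 25.3%. The run's share was above that of the condition in 8 of the 10, the exceptions being NFKBIE and TNFAIP3. RELB averaged 14.80 over the 4 conditions in run 1 and 13.94 in run 4. BIRC3 averaged 10.28 in run 1 and 8.91 in run 4, and NFKBIB averaged 11.12 in run 3 and between 11.88 and 11.99 in the other runs. REL was highest in run 4, at 8.81, so the members did not share 1 order of the runs. With the run as a term in the model, the fold changes stay the same and the standard errors of most members shrink. Then 4 members of 10 were called under PT-G (9.16% of all probes) and 4 under PT (10.3%), in both cases NFKBIE, NFKBIB, TNFAIP3 and NFKB2. With the replicate number as the block in place of the run, NFKBIE and NFKBIB were called under both digests, and TNFAIP3 and NFKB2 under neither. With the run, the count under p31-43 was again 0 of 10 (1.38% of all probes). Values with the run and without it are given below where the calls differ. Levels are listed by replicate number and differences by run. The numbers are the same except that MED-CTL replicate 1 belongs to run 2 and MED-CTL replicate 2 to run 1.

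**Figure D3:**
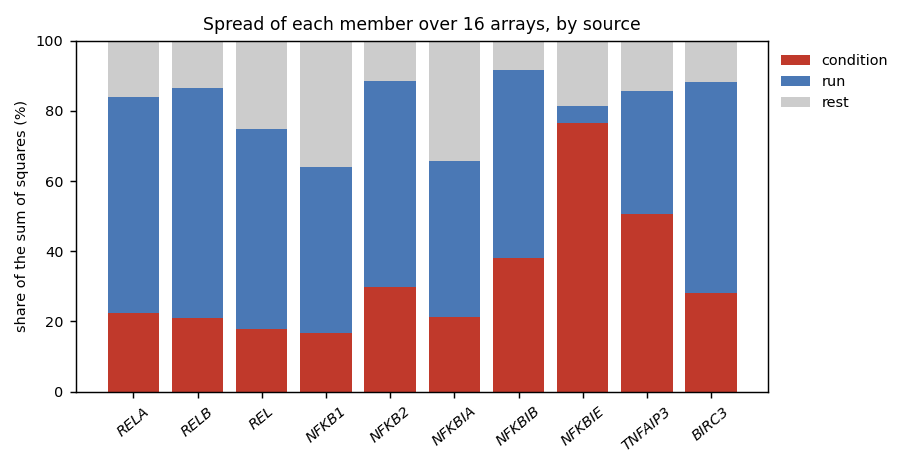
Share of each member's sum of squares over 16 arrays (in %) that goes with the condition (red), with the run (blue) and with neither (grey). NFKBIE has 76.5% with the condition and 4.95% with the run, and in 8 of the 10 members the blue bar is the taller of the 2 coloured bars.

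**Figure D4:**
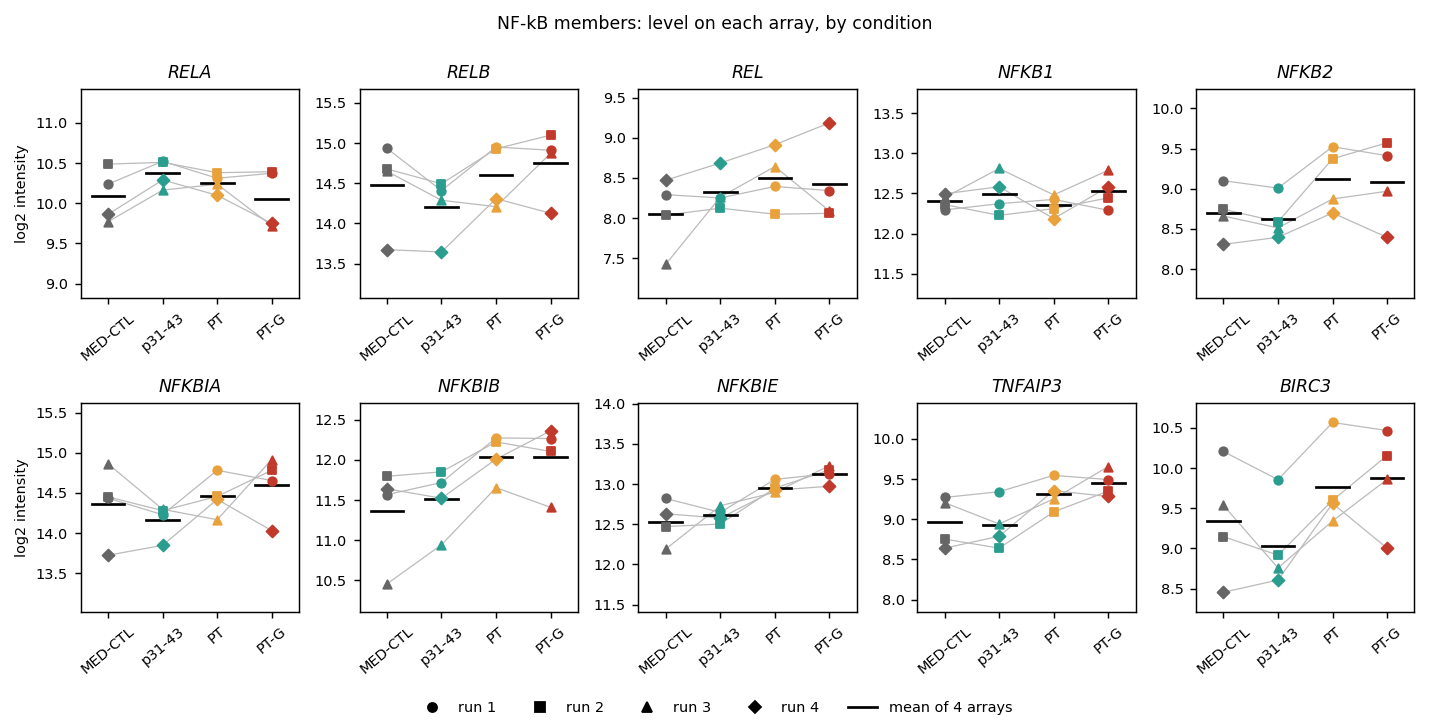
Log2 intensity of the 10 members on each of 16 arrays, by condition; symbols mark the run, grey lines join arrays of the same run, and black bars are means of 4 arrays. In NFKBIE every PT-G and PT array lies above every MED-CTL array, and in NFKBIB the PT and PT-G arrays lie above the MED-CTL array of their run in 4 of 4 runs.

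The subunits RELA, RELB and REL carry the domain that activates transcription, whereas NFKB1 and NFKB2 encode the precursors p105 and p100, which are cut to the DNA-binding subunits p50 and p52 and which in their uncut form act as inhibitors. None of the 5 was called against MED-CTL in any of the 3 comparisons when runs were left out of the model.

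RELA, the p65 subunit of the classical dimer, was measured by a probe printed on 10 spots, and the study had taken it from these arrays for follow-up. Its level was 10.49, 10.24, 9.77 and 9.86 in MED-CTL replicates 1 to 4, and 10.52, 10.51, 10.16 and 10.29 under p31-43. The groups overlapped. It stood at 10.06 ± 0.37 (SD, n = 4) under PT-G and at 10.26 ± 0.12 under PT. The log2 difference from MED-CTL was 0.28 under p31-43 (SE 0.18, 95% interval -0.11 to 0.68, adjusted p = 1.00), -0.03 under PT-G and 0.17 under PT. The p31-43 array was higher than the MED-CTL array in 4 of 4 runs, by 0.28, 0.02, 0.39 and 0.43. With the run in the model the SE was 0.10 and the 95% interval 0.07 to 0.50. The limma p was then 0.0151 unadjusted and 0.772 adjusted, so RELA was not called. The 10 spots of an array differed from each other with a median SD of 0.08, against an SD of 0.28 between the 16 arrays. Of 160 spot values, 18 were marked as outliers and left out, which left 9 spots that could be tested alone. Their differences under p31-43 ran from 0.22 to 0.39, and 0 of 9 were called.

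RELB, which pairs mainly with p52 in the alternative pathway and is itself a target of NF-kB, had levels of 14.68, 14.93, 14.65 and 13.67 in MED-CTL, 14.91, 15.10, 14.87 and 14.13 under PT-G, 14.95, 14.93, 14.21 and 14.31 under PT, and 14.41, 14.49, 14.29 and 13.64 under p31-43. All 4 groups overlapped. The differences from MED-CTL were 0.27 (SE 0.30) for PT-G, 0.11 for PT and -0.28 for p31-43. The p31-43 array was the lower one in 4 of 4 runs, by 0.53, 0.19, 0.36 and 0.03, with an adjusted p of 0.807 when the run was in the model.

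REL, the c-Rel subunit known best from lymphocytes, lay between 7.43 and 8.47 in MED-CTL, between 8.06 and 9.19 under PT-G, between 8.05 and 8.91 under PT and between 8.12 and 8.69 under p31-43. Its differences of 0.36, 0.44 and 0.27 had a SE of 0.27, and MED-CTL replicate 3 was the lowest of all arrays.

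NFKB1 stayed within 12.19 and 12.81 on all 16 arrays, also over 10 spots. Its differences were 0.13, -0.05 and 0.10 (SE 0.13), and the 95% intervals ran from -0.15 to 0.40, from -0.32 to 0.23 and from -0.17 to 0.37. These were the narrowest intervals among the 5 subunit genes.

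NFKB2 had levels of 8.74, 9.10, 8.66 and 8.31 in MED-CTL replicates 1 to 4. They were 9.41, 9.57, 8.97 and 8.39 under PT-G, 9.52, 9.37, 8.87 and 8.70 under PT, and 9.01, 8.59, 8.51 and 8.40 under p31-43. The digests overlapped with MED-CTL, because replicates 3 and 4 were low in each condition. Set against the MED-CTL array of its own run, the PT-G array was higher in 4 of 4 runs, by 0.31, 0.83, 0.31 and 0.09, and the PT array in 4 of 4, by 0.42, 0.63, 0.21 and 0.39. The log2 fold change of 0.38 under PT-G had a SE of 0.26 without the run (adjusted p = 0.902) and of 0.12 with it (adjusted p = 0.0998). For the log2 fold change of 0.41 under PT the adjusted p was 0.736 without the run and 0.0692 with it. With the replicate number as the block neither was called (adjusted p = 0.168 and 0.120). All 10 spots were higher than in MED-CTL under both digests and all 10 were lower under p31-43, where the difference was -0.08. The spots share their arrays and are no replicates of the condition.

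The 3 IkB proteins bind the dimers and hold them in the cytoplasm. NFKBIA (IkBα) is the fast inhibitor, broken down on stimulation and then made again, while NFKBIB (IkBβ) and NFKBIE (IkBε) act with slower kinetics. By its brightest probe, NFKBIE was called under both digests with the run in the model and without it, NFKBIB only with it, and NFKBIA in neither. Differences between the genes were not tested, and without the run the 95% interval of NFKBIA under PT-G (-0.27 to 0.73) holds the values of the other two.

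NFKBIE had log2 intensities of 12.47, 12.82, 12.19 and 12.63 in MED-CTL replicates 1 to 4. Under PT-G they were 13.13, 13.18, 13.23 and 12.97, and under PT 13.06, 12.95, 12.90 and 12.92. Under p31-43 they were 12.65, 12.50, 12.73 and 12.58. Every array of both digests lay above every MED-CTL array and above every p31-43 array, while MED-CTL and p31-43 overlapped. A lack of overlap with MED-CTL in the upward direction was found in 2.01% of all probes under PT-G and 2.36% under PT. The fold change was 1.51 under PT-G (log2 0.60, SE 0.11, adjusted p = 0.0190) and 1.35 under PT (log2 0.43, SE 0.11, adjusted p = 0.111). With the run in the model the adjusted p was 0.00784 under PT-G and 0.0382 under PT. The rise was present in 4 of 4 runs, by 0.31, 0.70, 1.04 and 0.34 under PT-G and by 0.24, 0.48, 0.71 and 0.29 under PT. Run 3, where MED-CTL was lowest, had the largest difference. Under p31-43 the difference was 0.09 (95% interval -0.15 to 0.32). The call under PT was lost with the background-subtracted signal and in a fit of only the 2 groups, and kept with any array left out.

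NFKBIB was measured by 3 probes. The brightest, A_24_P161086, had levels of 11.80, 11.57, 10.46 and 11.64 in MED-CTL, 12.27, 12.10, 11.41 and 12.36 under PT-G, 12.27, 12.22, 11.66 and 12.01 under PT, and 11.72, 11.85, 10.94 and 11.52 under p31-43. Run 3 held the lowest array of each condition, so the groups overlapped, although the PT-G array was above the MED-CTL array in 4 of 4 runs (by 0.70, 0.31, 0.95 and 0.72) and the PT array likewise (by 0.71, 0.43, 1.20 and 0.37). The fold change was 1.59 under PT-G (log2 0.67, SE 0.30, adjusted p = 0.574) and 1.60 under PT (log2 0.68, SE 0.30, adjusted p = 0.510). With the run in the model the SE fell to 0.12 and the adjusted p was 0.00905 under PT-G and 0.00863 under PT. With the replicate number as the block they were 0.0124 and 0.0117.

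The second probe of NFKBIB, A_23_P330895, carries the same transcript accession in the array annotation and was called already without the run, at 1.85-fold under PT-G (log2 0.89, SE 0.27, adjusted p = 0.198) and 1.79-fold under PT (log2 0.84, SE 0.27, adjusted p = 0.237). Its PT-G levels were 10.42, 10.27, 9.58 and 10.59 and its PT levels 10.30, 10.36, 9.83 and 10.18, against 9.58, 9.39, 8.59 and 9.74 in MED-CTL. PT did not overlap with MED-CTL, and PT-G did through replicate 3. Both calls were lost with the background-subtracted signal, in a fit of only the 2 groups and without MED-CTL replicate 3, where the differences were 0.64 and 0.60 on the log2 scale. The PT-G call was also lost without PT-G replicate 1, 2 or 4, and the PT call without PT replicate 1, 2 or 4 or MED-CTL replicate 2. The third probe, A_23_P79086, which is annotated with another transcript of the gene, differed by 0.21 under PT-G and 0.33 under PT (SE 0.26) and was not called. Under p31-43 the 3 probes differed from MED-CTL by 0.14, 0.37 and 0.19. The second probe was called there with the slide as the block (0.49, adjusted p = 0.135 in limma). With the run its 95% interval was 0.10 to 0.64, and it was not called.

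NFKBIA had levels of 14.45, 14.44, 14.86 and 13.72 in MED-CTL, 14.65, 14.78, 14.92 and 14.03 under PT-G, 14.78, 14.46, 14.17 and 14.42 under PT, and 14.23, 14.28, 14.30 and 13.85 under p31-43. The 4 conditions overlapped. The PT-G array was above the MED-CTL array in 4 of 4 runs, by 0.22, 0.33, 0.05 and 0.31, but the mean difference of 0.23 had a SE of 0.23 (adjusted p = 1.00) and, with the run, of 0.17 (adjusted p = 0.588). The differences under PT and p31-43 were 0.09 and -0.20. Within PT, run 3 was 0.69 below its MED-CTL array and run 4 was 0.70 above it.

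TNFAIP3 (A20) is an enzyme that edits ubiquitin chains and stops signalling upstream of the kinase complex. Its brightest probe, A_24_P157926, had levels of 8.75, 9.27, 9.21 and 8.64 in MED-CTL, 9.49, 9.35, 9.66 and 9.28 under PT-G, 9.55, 9.09, 9.25 and 9.36 under PT, and 9.34, 8.64, 8.94 and 8.79 under p31-43. Every PT-G array lay above every MED-CTL array, the closest pair being 9.28 and 9.27, while PT overlapped with MED-CTL. The fold change was 1.39 under PT-G (log2 0.48, SE 0.17, adjusted p = 0.355) and 1.27 under PT (log2 0.34, SE 0.17, adjusted p = 0.620), so neither was called. PT-G was called without MED-CTL replicate 2 or 3 and also without p31-43 replicate 1. With the run in the model both were (adjusted p = 0.0232 and 0.0834), and with the replicate number as the block neither was (adjusted p = 0.152 and 0.291). Against the MED-CTL array of its run, the PT-G array was higher in 4 of 4 runs, by 0.22, 0.60, 0.45 and 0.64, as was the PT array, by 0.27, 0.34, 0.05 and 0.72. The second probe, A_24_P166527, was dimmer, was well above background on 15 of 16 arrays and had the opposite sign under PT. It differed by 0.14 under PT-G and by -0.11 under PT (SE 0.46), and its levels of 6.36 to 8.33 followed the run, which took 75.6% of its sum of squares.

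BIRC3 (cIAP2) is a ubiquitin ligase that acts at the tumour necrosis factor receptor and is a classical target of the pathway. Its levels were 9.15, 10.21, 9.54 and 8.46 in MED-CTL, 10.47, 10.16, 9.86 and 9.0 under PT-G, 10.57, 9.60, 9.34 and 9.56 under PT, and 9.86, 8.92, 8.76 and 8.61 under p31-43. It had the widest intervals among the brightest probes of the members, and all 4 conditions overlapped. The difference was 0.54 under PT-G (SE 0.41, 95% interval -0.35 to 1.42), 0.43 under PT (-0.45 to 1.31) and -0.30 under p31-43 (-1.18 to 0.58). PT-G was above MED-CTL in 4 of 4 runs, by 0.26, 1.01, 0.32 and 0.55, and with the run in the model its adjusted p was 0.139. The 95% intervals with the run were 0.13 to 0.94 under PT-G, 0.02 to 0.84 under PT and -0.71 to 0.11 under p31-43. None of these was called, and with the slide as the block PT-G was (adjusted p = 0.0734).

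The comparison of PT-G with PT addressed whether the gliadin in the digest added to the effect of the digestion mixture. Of the 10 members 0 were called, with the run in the model or without it, where 0.0903% of all probes were called without it and 0.317% with it, and 0 members had an unadjusted p under 0.05 in limma without the run. The differences of PT-G minus PT ran from -0.20 for RELA to 0.18 for NFKB1. For NFKBIE the difference was 0.17 (95% interval -0.07 to 0.41) and PT-G was the higher array in 4 of 4 runs, by 0.07, 0.23, 0.33 and 0.05. For NFKBIB it was -0.00 (-0.64 to 0.63), for TNFAIP3 0.13 (-0.23 to 0.50), for NFKB2 -0.03 (-0.59 to 0.53) and for BIRC3 0.10 (-0.78 to 0.99). With the run in the model the intervals were narrower, from -0.07 to 0.41 for NFKBIE, -0.28 to 0.27 for NFKBIB, -0.10 to 0.37 for TNFAIP3, -0.30 to 0.24 for NFKB2 and -0.30 to 0.51 for BIRC3. The differences of NFKBIE (0.60 and 0.43), NFKBIB (0.67 and 0.68) and NFKB2 (0.38 and 0.41) from MED-CTL lie outside these run-adjusted intervals. For TNFAIP3 (0.48 and 0.34) and BIRC3 (0.54 and 0.43) the PT-G difference lies outside and the PT difference inside. Without the run, the intervals of NFKB2, TNFAIP3 and BIRC3 hold their differences. Those of NFKBIE and NFKBIB end below their own, that of NFKBIB only just. A difference between the digests within these intervals is not shown to be absent.

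The digests were also set against p31-43 directly. The digests are mixtures and p31-43 is a single peptide, so the doses cannot be matched. NFKBIE was higher under PT-G by 0.51 (SE 0.11, adjusted p = 0.0404) and under PT by 0.34 (adjusted p = 0.283), with no overlap in either comparison, which held in the upward direction for 2.94% and 2.6% of all probes. TNFAIP3 was higher under PT-G by 0.52 (SE 0.17, adjusted p = 0.257), with overlap through p31-43 replicate 1. These were 2 of 10 members called for PT-G, where 3.73% of all probes were called, and 1 of 10 for PT, where 3.15% were. The PT call of NFKBIE and the PT-G call of TNFAIP3 were lost in 10 and 8 of the 16 fits that left out 1 array, among them that without p31-43 replicate 2, where the differences were 0.31 and 0.42.

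With the run in the model, 7 members were called for PT-G against p31-43 (9.63% of all probes) and 5 for PT (8.42%). Those called for PT-G were RELB (0.54, adjusted p = 0.0413), NFKB2 (0.46, 0.0461), NFKBIB (0.53, 0.0289), NFKBIE (0.51, 0.0164), TNFAIP3 (0.52, 0.0142) and BIRC3 (0.84, 0.0215), all higher under PT-G, and RELA, which was lower by 0.31 (adjusted p = 0.0938). RELB stood 0.50, 0.61, 0.58 and 0.48 above p31-43 in the 4 runs and BIRC3 stood 0.61, 1.24, 1.10 and 0.40 above it. For PT the called members were NFKB2, NFKBIB, NFKBIE, TNFAIP3 and BIRC3, with differences from 0.34 (NFKBIE) to 0.73 (BIRC3). These calls depended on the block. With the replicate number, RELA and BIRC3 were not called for PT-G, and NFKB2 and NFKBIB alone were called for PT. With the slide, PT-G had NFKBIA called in place of RELA, and PT had RELB and NFKBIA in place of NFKBIB (0.29, adjusted p = 0.154) and NFKBIE (0.34, adjusted p = 0.119).

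The genes around the members were taken as lists of 35 upstream genes (receptors, adaptors and kinases that lead to NF-kB), 24 further regulators and 50 target genes. The lists were chosen with earlier results of these data known, so the counts describe them and are no independent support for a response. Of the upstream genes, 3 were called under PT-G (1 higher and 2 lower), 4 under PT (1 higher and 3 lower) and 0 under p31-43, where 3.44%, 3.64% and 0.388% of all probes were called. The list medians were 0.02, 0.01 and 0.00. MAP3K14 (NIK), the kinase that starts the alternative pathway and the cutting of p100, was 1.59-fold higher under PT-G (adjusted p = 0.0840) and 1.40-fold under PT, where it was not called (adjusted p = 0.276). IKBKB, the catalytic kinase that marks IkB proteins, was lower by 0.48 under PT-G and by 0.59 under PT on the log2 scale (adjusted p = 0.186 and 0.0820), and its 2 dimmer probes stood at 9.12 and 6.78 under PT-G against 9.39 and 6.94 in MED-CTL. NOD1, a sensor of bacterial peptidoglycan, was lower by 0.38 and 0.36 (adjusted p = 0.194 and 0.233). Under PT alone RIPK1, a kinase of the receptor complex, was called lower (-0.35, adjusted p = 0.191) and TICAM1, an adaptor of Toll-like receptors, higher (0.48, adjusted p = 0.248), and for TICAM1 the PT-G value was 0.46. A dimmer probe of TICAM1 stood at 7.661 under PT-G and 7.708 under PT against 7.385 in MED-CTL. The brightest genes not called were CARD10, at 0.30 and 0.05 under PT-G and PT, and TAB2, at 0.04 and -0.06.

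Of the 24 regulators 3 were called under PT-G, all higher, 3 under PT (2 higher and 1 lower) and 0 under p31-43, against the same 3.44%, 3.64% and 0.388% of all probes. BCL3, an IkB family member that works in the nucleus with p50 and p52, rose from 13.29 ± 0.18 in MED-CTL to 14.05 ± 0.17 under PT-G and 13.84 ± 0.10 under PT (SD, n = 4), without overlap, and stood at 13.15 ± 0.07 under p31-43. Its fold changes were 1.69 (adjusted p = 0.00228) and 1.47 (adjusted p = 0.0172). ZC3H12A, an RNase that degrades inflammatory transcripts, was 1.89-fold higher under PT-G (adjusted p = 0.121) and 1.67-fold under PT (adjusted p = 0.263). FBXW11, part of the ligase that degrades IkB proteins, was called under PT-G (0.31, adjusted p = 0.141, with 0.24 under PT). Its dimmer probe stood at 9.28 under PT-G and 9.09 under PT against 9.04 in MED-CTL. CYLD, an enzyme that removes ubiquitin chains, was called lower under PT (-0.56, adjusted p = 0.194, with -0.48 under PT-G). Its dimmer probe stood at 6.50 under PT-G and 6.80 under PT against 7.05 in MED-CTL. The brightest genes not called, TAX1BP1 and COMMD1, differed by -0.01 and -0.04 under PT-G and by -0.09 and 0.07 under PT.

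Of the 50 targets 8 were called under PT-G and 8 under PT, all higher, with medians over the list of 0.05 under both, and 2 under p31-43, both lower, where 3.44%, 3.64% and 0.388% of all probes were called. Both digests had 4 of these with an adjusted p under 0.05, where 0.944% and 0.82% of all probes had one. IER3, an early gene that protects from cell death, rose from 11.54 to 14.43 under PT-G and 14.35 under PT, which is 2.89 and 2.81 on the log2 scale (adjusted p = 7.43e-05 and 8.98e-05). ICAM1, an adhesion molecule for leukocytes, rose 1.67-fold and 1.68-fold (adjusted p = 0.00136 and 0.00167). CCL20, a chemokine of the gut epithelium, rose 2.50-fold and 2.21-fold (adjusted p = 0.0115 and 0.0286). CXCL8 was not well above background on any MED-CTL or p31-43 array and was above it on all 8 digest arrays, at least 1.72-fold brighter under PT-G and at least 1.69-fold under PT, where the bound sets the brighter mean against the level of the dim probe or the array's lowest probe well above background (adjusted p = 0.0126 and 0.0172).

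The other targets called were PTGS2, the inducible cyclooxygenase (0.96 and 0.77 on the log2 scale), LIF (1.18 and 1.04) and the cytokine IL6 (0.24 and 0.23) under both digests, MYC under PT-G (1.07, with 0.71 under PT) and CXCL1 under PT (1.41, with 1.31 under PT-G), and their adjusted p were all above 0.05. IL6 was dim and well above background on 1 of 4 MED-CTL arrays, on 4 PT-G arrays and on 2 PT arrays. A second, dim probe of LIF stood at 6.33 under PT-G and 6.14 in MED-CTL, and 1 dim probe of MYC stood lower under PT-G, at 7.15 against 7.36. CX3CL1 and MMP9 were lower under p31-43 by 0.23 and 0.27 (adjusted p = 1.00 for both). The other 2 probes of CX3CL1 stood at 6.39 and 6.15 under p31-43 against 6.38 and 6.17 in MED-CTL, and were not called. The brightest targets not called were GADD45B, at 0.36 and 0.28, and SOD2, at 0.09 and 0.30.

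**Figure D5:**
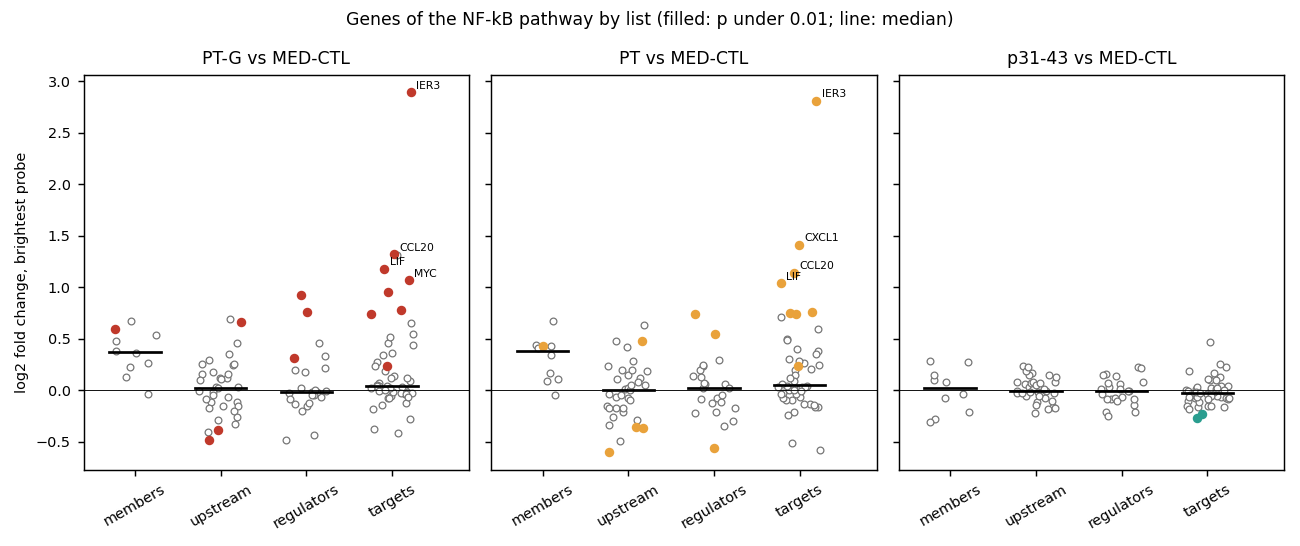
Log2 fold change against MED-CTL of the members, upstream genes, regulators and targets of NF-kB (brightest probe of each gene) under PT-G, PT and p31-43; filled points have a nominal p under 0.01, black lines are list medians, and names mark called genes beyond 1.0. IER3 stands highest under both digests, and under p31-43 the filled points are CX3CL1 and MMP9.

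With the run in the model, 18 targets were called under PT-G (16 higher and 2 lower) and 17 under PT (14 higher and 3 lower), 7 and 10 of the upstream genes, and 5 and 4 of the regulators, where 9.16% and 10.3% of all probes were called. Under p31-43 the counts were 2, 0 and 0, with 1.38% of all probes called.

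The gene names whose level was most like that of NFKBIE over the 16 arrays, among 24694 probes well above background on all of them, were KLF6 (Pearson's r 0.89), BMP2 (0.88) and BCL3 (0.88). The arrays share their conditions and runs, so these values describe a common pattern over the 4 conditions.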

How the data were processed

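RNA from 16 Caco-2 cultures was hybridized to single-colour Agilent arrays (4 per condition). Per the file headers, the image analysis gave each spot's foreground and background intensity on a linear scale, and the deposited processed intensity was background-subtracted. The deposited log2 values differ from the quantile-normalized median foreground by at most 5e-09 over 45015 spots. The submitters' processing notes name limma, and the paper's methods describe quantile normalization without background correction. Its probe filter and re-annotation were not used here.

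Log2 median foreground of 43376 spots, 1639 controls left out, was quantile normalized, 1774 spot values marked as outliers were dropped, and spots of a probe averaged. Of 41000 probes, 18 lacked 3 unmarked arrays in some condition and were not tested. A single limma model (version 3.58.1, R 4.3.3) of the 4 conditions was fitted to the other 40982 (12 residual and 1.88 prior degrees of freedom, moderated 2-sided tests). A call is the study's nominal p under 0.01, and adjustment is over all probes. The precision is limited by the number of arrays, and p-values measure the spread between these cultures. The model was tested on simulated data.

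Members, lists and tests were chosen with earlier results of these data known. Named genes are all members, every list gene called against MED-CTL, and the 2 brightest not called in each list. For a called member the 3 most alike gene names by Pearson's r were added. Genes of several probes were taken by the brightest. Gene names are those of the array, older names included. Probes carry no genome position here, and promoters are those of RefSeq (GRCh38.p14).

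Whether equal replicate numbers pair the arrays was checked by correlating deviations from the group means over 40705 probes. Every pair was above 0.1 for PT-G with MED-CTL (0.395 to 0.857), p31-43 with MED-CTL (0.262 to 0.707), PT-G with p31-43 (0.578 to 0.836) and PT with p31-43 (0.152 to 0.600), but not for PT with MED-CTL (-0.01 to 0.411) and PT-G with PT (0.0492 to 0.695). The run differs from the replicate number in that MED-CTL replicates 1 and 2 change places. By run, the correlations with MED-CTL were 0.628 to 0.857 for PT-G, -0.01 to 0.620 for PT and 0.538 to 0.707 for p31-43. The PT array of run 3 stayed lowest, at -0.01 with MED-CTL, 0.0492 with PT-G and 0.152 with p31-43. Values by run for PT thus include a run with little sign of pairing.

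Alternatives were the processed signal scaled by each array's 75th percentile, normexp (offset 50), scaling to a common median, the values as deposited on the log2 scale, probes well above background in at least 1 condition, blocks for replicate number, run or slide, only the 2 groups compared, each array left out, and, added after seeing the data, every spot tested on its own. For 1 gene of the marker list of other cells, the result is not reported here.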

Additional observations from a re-analysis of the deposited data

Results flagged for a closer look

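NFKBIA in p31-43 replicate 4 stood apart from the other 3 arrays of its group. Its log2 intensity was 13.85 and the nearest of the others was 14.23, a gap of 0.850 of the group's range, which is above Dixon's limit for 4 values. It was the 1 such array in 40 groups of 4 tested, which were the 10 members in the 4 conditions, and chance alone gives about 1 in 20 groups. Replicate 4 belongs to run 4, whose 4 NFKBIA arrays averaged 14.01, against 14.49 to 14.56 in the other runs. In that run MED-CTL stood at 13.72 and PT at 14.42. The part of the run in the gap was not tested.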

How the results depend on the processing

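At the nominal threshold, normexp and the values as deposited left every count of called genes and probes within 1.5 times. NFKBIE under PT-G was called in every alternative and with any array left out. The processed signal gave 0 members called under PT (1 in the main model), 1 for PT-G against p31-43 (2) and 0 for PT against p31-43 (1), 1 upstream gene under PT-G (3), 1 under PT (4), and 0 targets under p31-43 (2). Median scaling gave 291 probes under p31-43 (159), 8 for PT-G against PT (37), 1 and 0 members for PT-G and PT against p31-43, 2 upstream genes under PT and 1 target under p31-43. Keeping only probes well above background gave 82 probes under p31-43, 2 for PT-G against PT, 1 and 0 members for PT-G and PT against p31-43, 1 upstream gene under PT and 0 targets under p31-43, and there fewer probes were tested. Fits of only the 2 groups gave 889 probes under PT-G (1408), 82 under p31-43, 14 for PT-G against PT, 0 members under PT, 1 for PT-G against p31-43, 2 upstream genes under PT and 1 regulator under PT (3). The cause of these changes was not tested.

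Blocks raised the counts. In the order PT-G, PT and p31-43 against MED-CTL, PT-G against PT, PT-G against p31-43 and PT against p31-43, the replicate block called 3110, 3481, 432, 95, 3309 and 2874 probes, the run 3755, 4217, 567, 130, 3948 and 3451, and the slide 5011, 4333, 1527, 149, 4476 and 4311. Members called under PT-G, under PT and for PT-G and PT against p31-43 were 2, 2, 5 and 2 with the replicate block, 4, 4, 7 and 5 with the run, and 5, 4, 7 and 5 with the slide, and 0 under p31-43 and for PT-G against PT with each block. These counts use the brightest probes. The second probe of NFKBIB was called under p31-43 with the slide (0.49). Equal counts did not always hold the same genes. Under PT-G and PT the replicate block called NFKBIB and NFKBIE, the run added NFKB2 and TNFAIP3, and the slide also added BIRC3 under PT-G. Under PT-G and PT, upstream genes called were 6 and 8 with the replicate block, 7 and 10 with the run, and 7 and 8 with the slide, and targets were 16 and 16, 18 and 17, and 20 and 17. Regulators were 5 under PT-G with the replicate block and with the run, and 7 under PT-G and 5 under PT with the slide.

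With 1 array left out, probes called were 88 to 329 under p31-43 (lowest without MED-CTL replicate 2, highest without MED-CTL replicate 4) and 27 to 84 for PT-G against PT (lowest without PT-G replicate 4, highest without PT replicate 1). They were 1056 to 1686 under PT-G and 1081 to 1877 under PT. Against p31-43 they were 1179 to 1777 for PT-G and 979 to 1496 for PT. Members called were 1 to 2 under PT-G, 1 to 2 for PT-G against p31-43 and 0 to 1 for PT against p31-43. Upstream genes were 1 to 5 under PT (lowest without PT replicate 4), regulators 2 to 5 under PT-G and 1 to 3 under PT (both lowest without MED-CTL replicate 2), and targets 1 to 2 under p31-43 (lowest without MED-CTL replicate 2).

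No called member value reversed. Uncalled differences that changed sign were, with median scaling, RELA under PT-G (0.0077), NFKB1 under PT (0.00042), TNFAIP3 under p31-43 (0.032) and NFKBIB for PT-G against PT (0.034), with the processed signal NFKBIB for PT-G against PT (0.032), and with the slide RELB (-0.017), REL (0.085), NFKBIA (-0.036), NFKBIB (0.14) and BIRC3 (-0.0060) for PT-G against PT and REL for PT against p31-43 (-0.070). Leaving out 1 array gave ranges across zero under PT-G for RELA (-0.14 to 0.10) and RELB (-0.0024 to 0.48), and under PT for RELB (-0.16 to 0.26), NFKB1 (-0.092 to 0.0062) and NFKBIA (-0.13 to 0.25). Under p31-43 they were NFKB1 (-0.0051 to 0.19), NFKB2 (-0.21 to 0.055), NFKBIB (-0.16 to 0.33), NFKBIE (-0.027 to 0.18) and TNFAIP3 (-0.18 to 0.062). For PT-G against PT they were REL (-0.34 to 0.058), NFKB2 (-0.19 to 0.20), NFKBIB (-0.13 to 0.20, second probe -0.079 to 0.26) and BIRC3 (-0.094 to 0.39), and for PT-G against p31-43 REL (-0.17 to 0.21) and NFKB1 (-0.062 to 0.13). Each spot of RELA, NFKB1 and NFKB2 tested on its own, an alternative chosen after seeing the data, called none. Signal over background limits the values of IL6, CXCL8 and PTPRC.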
